A study of Homo sapiens with 6 samples.

Results

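The receptor tyrosine kinases examined here are the 10 receptors most often discussed in glioblastoma: EGFR, ERBB2, PDGFRA, PDGFRB, KIT, MET, AXL, FGFR1, FGFR2 and FGFR3. They were chosen by name, and all 10 were found among the 28395 genes of the count table by their NCBI gene identifiers. RNA-sequencing covered U251MG, an established human glioblastoma line, as 3 libraries of unedited cells (WT) and 3 libraries of cells whose NUAK2 gene, encoding a serine/threonine kinase, had been targeted with a CRISPR-Cas9 lentivirus (NUAK2-CR). The edited cells were sorted for both GFP and mCherry, the markers of the guide vectors, and grown as clones; the labels do not name the clone behind the 3 NUAK2-CR libraries, or say whether the WT cells carried a control vector. The study's text and a supplementary heading name a single clone, the third, for further work and for the enrichment analysis against WT, so the 3 libraries may all come from 1 clone, in which case effects of NUAK2 editing and of that clone cannot be told apart. Nothing in the labels says that libraries of a group came from separate cultures, so p-values measure the spread between these libraries, which may be technical.

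A receptor tyrosine kinase spans the membrane once, binds a growth factor outside the cell and carries a tyrosine kinase domain inside it. Ligand binding brings receptors together, they phosphorylate each other, and adaptor proteins dock on the phosphotyrosines to start RAS-ERK and PI3-kinase-AKT signalling. In glioblastoma EGFR is the receptor most often amplified, PDGFRA amplification is typical of proneural tumors, MET and AXL are linked to invasion and mesenchymal tumors, and FGFR3 and FGFR1 occur as fusion oncogenes.

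Library totals were 35310946 to 55574081 counts in WT and 29648445 to 33776712 in NUAK2-CR, so each NUAK2-CR library was shallower than each WT library. NUAK2 itself fell from 1654 ± 243 to 869.5 ± 83.2 normalized counts (SD, n = 3 each) and was still expressed. Normalized counts are counts scaled by edgeR's TMM factors to the mean library. Of the 8 astroglial and glioma markers, VIM, CD44 and GFAP had the most reads, followed by NES, SOX9 and SOX2. S100B had 157 ± 22.5 normalized counts in WT and 25.4 ± 16.1 in NUAK2-CR (SD, n = 3 each), and AQP4 had at most 2.15 in any library. The 8 together held 331746 to 367067 normalized counts in WT and 144893 to 151667 in NUAK2-CR. Of the 7 tested, 6 were lower in NUAK2-CR, as were 28.2% of all tested genes. Summed markers of immune cells stayed at or below 260.5 normalized counts in each library, with AIF1 at 0 and PTPRC near 0, those of endothelial cells at or below 90.2, and those of oligodendrocytes at or below 161, with MOG and MAG at 0. Immune markers, nearly all CSF1R, went from between 217 and 260.5 to between 41.9 and 51.6, and endothelial markers went from between 25.8 and 34.5 to between 86.8 and 90.2. Pericyte markers summed to 442 to 513 in WT and 494 to 547 in NUAK2-CR, and neuronal markers to 1041 to 1068 and 1317 to 1448. The part of these markers in the results was not tested.

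Of the 10 receptors, 6 rose in NUAK2-CR (EGFR, PDGFRB, KIT, MET, AXL and FGFR1), 3 fell (PDGFRA, FGFR2 and FGFR3) and ERBB2 did not pass the test. A gene was called at an adjusted p under 0.05, by Benjamini-Hochberg over 14873 tested genes, in the quasi-likelihood test of edgeR; log2 fold changes are NUAK2-CR over WT and are given ± their standard error (SE). The same threshold called 26.3% of all tested genes higher and 28.2% lower, so a large share of the transcriptome moved with the receptors. For 9 of the 10 receptors the groups had no overlapping values, as for 61.4% of all tested genes. At an absolute log2 fold change over 1, PDGFRB and FGFR1 remained among the higher genes (6.91% of all tested genes) and PDGFRA among the lower (6.96%). PDGFRA alone passed the study's threshold of 2, which called 2.83% of tested genes lower and 1.89% higher. The median log2 fold change was 0.32 over the 10 receptors and -0.01 over all genes tested. In bulk RNA, a fall in the share of cells that express a gene and a fall of its RNA per cell cannot be told apart.

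**Figure D1:**
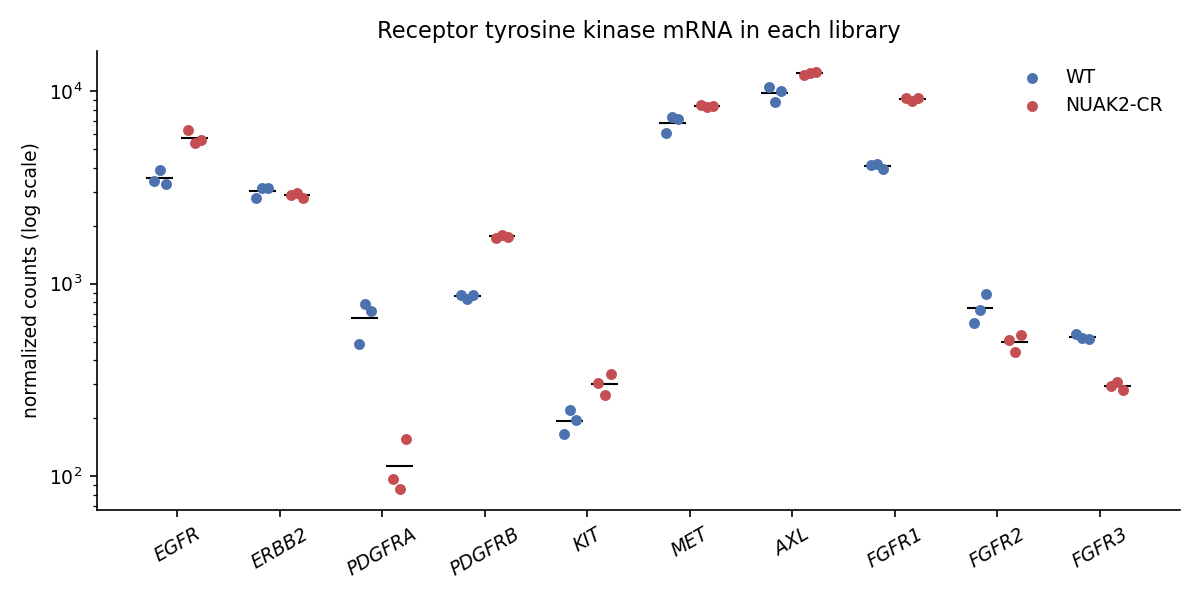
Normalized counts (vertical axis, log scale) of the 10 receptor genes in each of the 3 WT and 3 NUAK2-CR libraries; points are libraries and black lines group means. PDGFRA drops from between 486 and 785 to between 85.6 and 156, FGFR1 rises from between 3946 and 4188 to between 8914 and 9255, and the ERBB2 points of both groups overlap.

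Because receptors of one family moved apart, the start regions of 4 of them are shown: PDGFRA and PDGFRB, which changed in opposite directions, EGFR, which rose, and FGFR3, which fell. Each RefSeq window (GRCh38.p14) runs 5′ to 3′ from 250 bases before the outermost listed start site to 50 bases after it. Capitals mark matches on either strand to the letters of the GC box (GGGCGG, bound by SP-family factors), the TEAD site (GGAATG) and the E-box (CACGTG). They also mark a loose form of the AP-1 site (TGANTCA), with any base at N, where the consensus has C or G.
PDGFRA, chr4:54229043-54229342, plus strand: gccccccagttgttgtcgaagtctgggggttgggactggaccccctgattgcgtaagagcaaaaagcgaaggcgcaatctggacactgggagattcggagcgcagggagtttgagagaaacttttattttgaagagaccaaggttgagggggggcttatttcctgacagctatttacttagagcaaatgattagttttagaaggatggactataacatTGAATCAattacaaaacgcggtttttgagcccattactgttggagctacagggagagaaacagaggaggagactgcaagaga
PDGFRB, chr5:150155796-150156095, minus strand: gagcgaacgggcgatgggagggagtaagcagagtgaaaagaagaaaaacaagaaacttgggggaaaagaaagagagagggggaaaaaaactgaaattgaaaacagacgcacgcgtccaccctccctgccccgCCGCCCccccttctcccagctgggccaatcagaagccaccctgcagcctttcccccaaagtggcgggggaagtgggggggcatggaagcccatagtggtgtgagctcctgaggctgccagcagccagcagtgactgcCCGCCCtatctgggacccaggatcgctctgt
EGFR, chr7:55018767-55019066, plus strand: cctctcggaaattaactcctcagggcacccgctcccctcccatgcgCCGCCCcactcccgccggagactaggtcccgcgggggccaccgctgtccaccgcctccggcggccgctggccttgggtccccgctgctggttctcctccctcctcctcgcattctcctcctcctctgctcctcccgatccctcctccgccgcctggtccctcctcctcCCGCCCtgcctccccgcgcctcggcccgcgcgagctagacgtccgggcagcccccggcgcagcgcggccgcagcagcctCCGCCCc
FGFR3, chr4:1793043-1793342, plus strand: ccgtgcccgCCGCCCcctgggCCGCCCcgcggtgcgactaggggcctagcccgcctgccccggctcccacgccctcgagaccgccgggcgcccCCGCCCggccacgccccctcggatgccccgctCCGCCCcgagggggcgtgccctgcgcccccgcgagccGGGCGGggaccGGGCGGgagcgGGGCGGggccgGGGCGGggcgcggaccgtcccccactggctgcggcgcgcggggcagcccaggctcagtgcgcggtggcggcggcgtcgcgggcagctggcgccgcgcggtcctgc
The PDGFRA window was the least GC-rich of the members, at 47.0% against a median of 58.7% over the 35116 windows of the table. It held no GC box but 1 match to the loose AP-1 letters, at 32 bases before the start. PDGFRB's window had 59.3% GC and 2 GC boxes, EGFR's 75.3% and 3. FGFR3's had 86.3% GC, the highest of the 9 members with a window, and 8 GC boxes. Over the 9, GC boxes were found in 7 (45.0% of all windows), AP-1 letters in 2 (PDGFRA and ERBB2, against 7.71%), an E-box in 1 (MET, against 7.26%) and TEAD letters in 0 (against 14.0%). These are matches of letters and not sites shown to be bound, and neither AP-1 match has the C or G of the consensus in its middle. No window was used for FGFR1. EGFR, PDGFRA and AXL had 2 listed windows each and FGFR2 had 5, of which only the outermost was searched. Whether the outermost start is the one used in these cells was not tested.

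EGFR (NCBI gene 1956, chromosome 7, 55019017 to 55211628 of GRCh38) binds EGF, TGF-alpha and related growth factors. WT replicates 1 to 3 held 3406, 3916 and 3318 normalized counts of EGFR, and the edited libraries held 6294, 5392 and 5586. All 3 NUAK2-CR values lay above all 3 WT values. The mean rose from 3547 ± 322 to 5757 ± 475 (SD, n = 3 each), 1.62-fold, with a log2 fold change of 0.70 ± 0.08 (SE, edgeR adjusted p = 1.92e-05).

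ERBB2 (NCBI gene 2064, chromosome 17, 39688094 to 39728658 of GRCh38), the family member with no ligand of its own that pairs with the other ERBB receptors, had normalized counts of 2785, 3161 and 3149.5 in the WT libraries and 2895, 2981 and 2798 in the edited ones, in replicate order. The edited libraries all lay within the WT range. The gene had a log2 fold change of -0.07 ± 0.07 (SE, edgeR adjusted p = 0.454), with a 95% interval from -0.225 to 0.09, so a small fall or rise within those bounds was not detectable here. ERBB2 overlaps PGAP3 and MIEN1 on the opposite strand, which held 2739 and 9669 counts over the 6 libraries against 17701 for ERBB2, and the counting strand setting is not given in the sources used here. The EGFR to ERBB2 ratio of normalized counts, on the log2 scale, was 0.29, 0.31 and 0.08 over the WT libraries and 1.12, 0.85 and 1.00 over the edited ones, so the balance of the pair moved toward EGFR in each NUAK2-CR library.

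PDGFRA (NCBI gene 5156, chromosome 4, 54229293 to 54298245 of GRCh38), the PDGF receptor of oligodendrocyte precursors and proneural glioma, showed the largest change among the 10. WT replicates 1 to 3 held 486, 785 and 718 normalized counts of PDGFRA, and the edited libraries held 96.5, 85.6 and 156. NUAK2-CR replicate 3 was the highest of the edited libraries and still lay far under the lowest WT library. The mean fell from 663 ± 157 to 113 ± 37.8 (SD, n = 3 each), 5.83-fold, with a log2 fold change of -2.54 ± 0.23 (SE, edgeR adjusted p = 1.65e-06). The raw WT counts behind it were 732, 814 and 668, and the edited libraries held 76, 71 and 142, well above a floor of 3 counts per library. A further protein-coding Ensembl model, ENSG00000282278, overlaps PDGFRA on the same strand and was not analysed here. MBP, 1 of the 4 oligodendrocyte markers, was also lower, at 126 ± 22.02 and 31.6 ± 3.38 normalized counts (SD, n = 3 each), and the part of such markers in the fall of PDGFRA was not tested.

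PDGFRB (NCBI gene 5159, chromosome 5, 150113839 to 150155845 of GRCh38), the second PDGF receptor, known from pericytes and mesenchymal cells, went the other way. WT replicates 1 to 3 held 870.2, 837 and 875 normalized counts of PDGFRB, and the edited libraries held 1736, 1799 and 1753. Within each group the 3 libraries were close together, and the groups were far apart. Its change corresponded to a log2 fold change of 1.03 ± 0.07 (SE, edgeR adjusted p = 1.91e-07), a 2.05-fold rise. Of the 3 tested pericyte markers, RGS5 and KCNJ8 were lower in NUAK2-CR (log2 fold changes -0.96 and -1.34) and NOTCH3 was higher (2.42), and their part in the PDGFRB values was not tested.
The log2 ratio of PDGFRA to PDGFRB counts was -0.84, -0.09 and -0.29 in WT replicates 1, 2 and 3. In NUAK2-CR replicates 1, 2 and 3 it was -4.17, -4.39 and -3.49. The mean ratio thus moved by -3.61 on the log2 scale, with no overlap between groups.

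KIT (NCBI gene 3815, chromosome 4, 54657957 to 54740715 of GRCh38), the stem cell factor receptor, lies next to PDGFRA on chromosome 4 but rose. WT replicates 1 to 3 held 165, 221 and 196 normalized counts of KIT, and the edited libraries held 305, 263 and 340.3. All NUAK2-CR libraries exceeded all WT libraries, although KIT had the fewest WT reads of the 10 receptors. The gene had a log2 fold change of 0.65 ± 0.16 (SE, edgeR adjusted p = 0.00454). KDR, a VEGF receptor that is the next receptor tyrosine kinase gene on that chromosome and was singled out after its values were seen, fell from 251.1 ± 48.4 to 106 ± 7.17 (SD, n = 3 each) normalized counts (log2 fold change -1.24 ± 0.19 SE, edgeR adjusted p = 0.000124). PDGFRA, KIT and KDR thus fell, rose and fell side by side in the same libraries.

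MET (NCBI gene 4233, chromosome 7, 116672196 to 116798377 of GRCh38), the receptor for hepatocyte growth factor, had normalized counts of 6052, 7359 and 7161 in the WT libraries and 8504, 8274 and 8426 in the edited ones, in replicate order. The edited libraries were tightly grouped above the WT libraries. The change was small, with a log2 fold change of 0.29 ± 0.08 (SE, edgeR adjusted p = 0.00721), a 1.23-fold rise.

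AXL (NCBI gene 558, chromosome 19, 41219223 to 41261766 of GRCh38), a TAM-family receptor that binds GAS6, was the receptor with the most reads. WT replicates 1 to 3 held 10604, 8777 and 10057 normalized counts of AXL, and the edited libraries held 12147, 12517 and 12678. The lowest edited library stood above the highest WT library. Its change corresponded to a log2 fold change of 0.34 ± 0.08 (SE, edgeR adjusted p = 0.00229), a 1.27-fold rise.

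FGFR1 (NCBI gene 2260, chromosome 8, 38411143 to 38468635 of GRCh38), the FGF receptor typical of mesenchymal cells and neural progenitors, rose most of the 10. WT replicates 1 to 3 held 4123, 4188 and 3946 normalized counts of FGFR1, and the edited libraries held 9255, 8914 and 9246. The groups were separated by more than the whole WT level. The mean went from 4086 ± 125 to 9138 ± 195 (SD, n = 3 each), a log2 fold change of 1.16 ± 0.06 (SE, edgeR adjusted p = 2.07e-08). LETM2, which overlaps FGFR1 on the opposite strand, held 612 counts over the 6 libraries against 37321 for FGFR1.

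FGFR2 (NCBI gene 2263, chromosome 10, 121478330 to 121598458 of GRCh38), which in the brain is best known from glia, fell, with normalized counts of 626, 726 and 889 in the WT libraries and 512, 441 and 539 in the edited ones, in replicate order. WT replicate 3 was the highest library, and the lowest WT value was still above the highest edited one. Its change corresponded to a log2 fold change of -0.58 ± 0.13 (SE, edgeR adjusted p = 0.0026).

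FGFR3 (NCBI gene 2261, chromosome 4, 1793293 to 1808867 of GRCh38), an FGF receptor of astrocytes and their precursors, fell more evenly, with normalized counts of 549, 520.0 and 516 in the WT libraries and 293, 309 and 279 in the edited ones, in replicate order. Its change corresponded to a log2 fold change of -0.85 ± 0.11 (SE, edgeR adjusted p = 3.6e-05), a 1.8-fold fall. The ratio of FGFR1 to FGFR3 counts on the log2 scale rose from 2.95 ± 0.05 to 4.96 ± 0.10 (SD, n = 3 each), and that of FGFR1 to FGFR2 from 2.47 ± 0.29 to 4.20 ± 0.12, with no overlap in either case.

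Levels of different receptors were compared per transcript length, as RPKM (reads scaled for the length of the MANE Select transcript and for library size). In WT, AXL was highest at 55.5 ± 5.30 (SD, n = 3, as for all levels here), followed by MET at 26.8 ± 2.75, FGFR1 at 19.1 ± 0.585, ERBB2 at 17.7 ± 1.25 and EGFR at 9.55 ± 0.868. FGFR2, PDGFRB, FGFR3 and PDGFRA came next, between 2.77 and 4.31, and KIT was lowest at 1.00 ± 0.146. The libraries of FGFR1 and ERBB2 overlapped, as did those of FGFR2 and PDGFRB and of FGFR3 and PDGFRA. Their ranges across libraries thus do not settle the order of these neighbours, which were not compared within each library.

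In NUAK2-CR, AXL was again highest, at 70.4 ± 1.54. FGFR1 followed at 42.8 ± 0.911, above MET at 32.8 ± 0.456, with no overlap between their libraries. ERBB2 at 16.9 ± 0.535 and EGFR at 15.5 ± 1.28 overlapped, whereas EGFR had been clearly lower in WT. PDGFRB stood sixth at 8.25 ± 0.154, and FGFR2 had 2.87 ± 0.290. FGFR3 at 1.82 ± 0.0926 and KIT at 1.57 ± 0.201 overlapped. PDGFRA was lowest, at 0.471 ± 0.158.
With all annotated exons as the length instead, which stretches FGFR1 and FGFR2 most, MET ranked above FGFR1 in NUAK2-CR too (31.0 and 14.2), ERBB2 ranked above FGFR1 in WT (7.83 and 6.33), EGFR ranked above ERBB2 in NUAK2-CR (9.63 and 7.47), and FGFR2 ranked ninth in both groups. AXL was highest in both groups under either length.

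The 10 levels summed to 144 ± 2.64 in WT and 193 ± 1.76 in NUAK2-CR (SD, n = 3 each). AXL held 38.5% ± 3.68 of the sum in WT and 36.4% ± 0.864 in NUAK2-CR, values that overlapped between libraries. The FGFR1 share went from 13.3% ± 0.634 to 22.1% ± 0.281, and the ERBB2 share from 12.3% ± 0.776 to 8.75% ± 0.354. With all annotated exons as the length, the sums were 106 ± 2.32 and 137 ± 0.988, the FGFR1 share went from 5.99% ± 0.311 to 10.4% ± 0.173 and the ERBB2 share from 7.40% ± 0.540 to 5.46% ± 0.211, so the size of a share depended on the length used while the direction of these 2 did not. With MANE lengths PDGFRA made up 1.92% ± 0.447 in WT and 0.243% ± 0.0799 in NUAK2-CR.

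**Figure D2:**
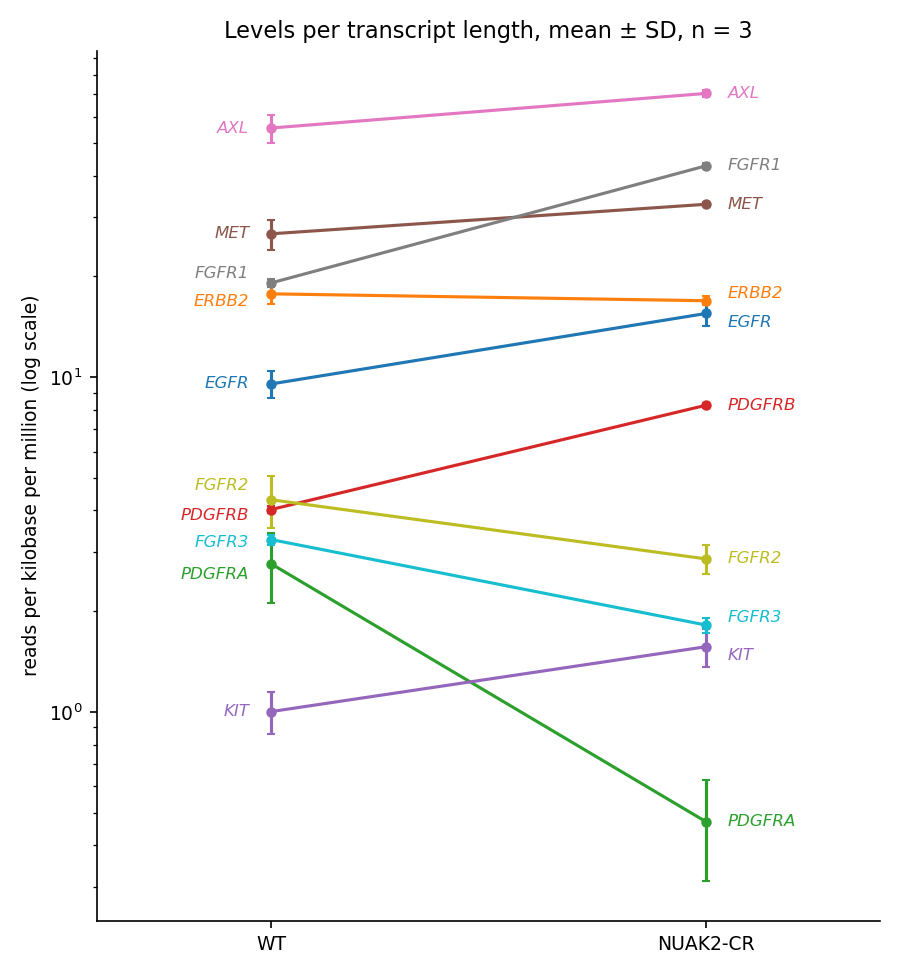
Mean RPKM (vertical axis, log scale) of each receptor in WT and NUAK2-CR, with the SD of 3 libraries as bars and lines joining the means of one gene. The FGFR1 line crosses above MET, EGFR closes up to ERBB2, and PDGFRA falls under KIT to the lowest level.

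To see whether a receptor moved with its stretch of chromosome, each was set beside the 50 tested genes nearest to it on its chromosome. The 50 genes spanned from 2.54 megabases around AXL to 25.5 around KIT, so the stretches differed in size. Those of PDGFRA and KIT largely overlapped, so these comparisons were not separate. PDGFRA lay under all 50 of its neighbours, whose median log2 fold change was 0.01. FGFR3 lay under 49 of 50, with a neighbour median of 0.25. PDGFRB lay above 48 of 50 (median -0.32) and FGFR1 above 47 of 50 (median 0.14). KIT was above 45 (median -0.02) and EGFR above 42 (median 0.11).

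The other receptors lay nearer to their 50 neighbours. FGFR2 sat in a stretch of chromosome 10 where 36 of the 50 neighbours were lower in NUAK2-CR, with a median of -0.68, and 27 of them lay below FGFR2's own value of -0.58. MET, at 0.29, lay above 30 of its 50 neighbours, whose median was 0.18, and AXL above 36, with a median of 0.05. Around ERBB2 27 of the 50 neighbours were lower and 1 was higher, with a median of -0.42, and ERBB2's own value of -0.07 lay above 37 of them. This division depended on the number of neighbours. Over the nearest 20 genes EGFR, AXL and FGFR2 each lay above 16, ERBB2 above 17 and MET above 12, and the medians were -0.20 around AXL and -0.90 around FGFR2. PDGFRA and FGFR3 lay under all 20, PDGFRB above 19, and KIT and FGFR1 above 18 each. Whether a shift shared with the neighbours has a part in the values of the receptors was not tested.

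**Figure D3:**
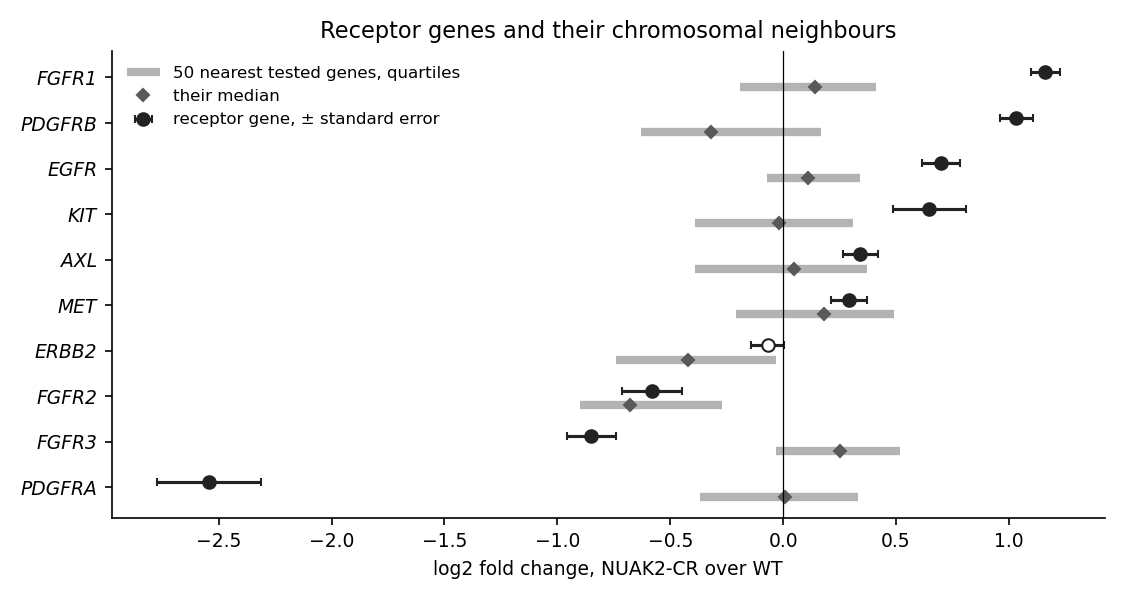
Log2 fold change of NUAK2-CR over WT (horizontal axis) for each receptor, with its standard error as a bar, and below it the quartiles (grey bar) and median (diamond) of the 50 nearest tested genes; the open point, ERBB2, did not pass the test. PDGFRA, FGFR3, PDGFRB, FGFR1, EGFR and KIT lie outside the grey bars of their neighbours, whereas FGFR2, MET and AXL lie within them.

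The ligands of these receptors were taken from a list of 37 genes, of which 21 had enough reads to be tested. Of the 21, 9 were higher in NUAK2-CR, 3 were lower and 9 did not pass the test, with a median log2 fold change of 0.23. The 57.1% called was close to the 54.5% of all tested genes. Ligands with an absolute log2 fold change under 1 were named after their values were seen. AREG had no reads in any library, and only 5 of 18 FGF genes could be tested. In the EGF family, EREG (epiregulin, a ligand of EGFR) went from 8, 2 and 0 raw counts over the WT libraries to 54, 24 and 48 over the edited ones (log2 fold change 4.11 ± 0.63 SE, edgeR adjusted p = 0.000141). Over the alternative fits its log2 fold change ran from 3.46 to 5.64, and without WT replicate 1, where most of its WT counts lay, it was at least 16.4-fold higher against a floor of 3 counts per library. BTC (betacellulin) rose from 64.6 ± 7.99 to 134 ± 15.96 (SD, n = 3 each) normalized counts. NRG1 (neuregulin, a ligand of ERBB3 and ERBB4) fell from 1601 ± 62.5 to 803 ± 92.4 (SD, n = 3 each) normalized counts. EGF and TGFA had log2 fold changes of 0.08 and 0.12 and did not pass.

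All 4 PDGF genes passed the test, where 54.5% of all tested genes passed. PDGFB, whose product binds both PDGF receptors, had normalized counts of 563, 639.6 and 669 in the WT libraries and 1672, 1912 and 2072 in the edited ones, in replicate order. The groups did not overlap, and PDGFB had a log2 fold change of 1.60 ± 0.10 (SE, edgeR adjusted p = 6.77e-08). PDGFC rose by 0.65 and PDGFD, whose product prefers PDGFRB, by 0.44 on the log2 scale. PDGFA, whose product acts through PDGFRA, had a log2 fold change of -0.39 ± 0.08 (SE, edgeR adjusted p = 0.000877). PDGFC, whose product acts mainly through PDGFRA, thus rose where PDGFRA fell, as did PDGFB, while PDGFA was lower.

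GAS6, the ligand of AXL, had normalized counts of 3166, 2699 and 2890.5 in the WT libraries and 7323, 8355 and 8037 in the edited ones, in replicate order. Each edited library held far more than any WT library, with a log2 fold change of 1.44 ± 0.08 (SE, edgeR adjusted p = 2.4e-08) beside 0.34 for AXL. PROS1, the other TAM ligand, had 0.51 (adjusted p = 0.0193), and did not pass without NUAK2-CR replicate 2 (or without replicate 3), where the adjusted p reached 0.0712. KITLG, the ligand of KIT, and HGF, the ligand of MET, did not pass the test, with log2 fold changes of 0.18 (95% interval -0.03 to 0.39) and 0.05 (95% interval -0.73 to 0.84). HGF had few reads, 30.5 ± 9.48 normalized counts in WT.

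Of the 5 tested FGF genes, FGF18 and FGF5 rose and FGF2 fell. FGF18 had normalized counts of 155, 122 and 121 in the WT libraries and 804, 734 and 827 in the edited ones, in replicate order, a log2 fold change of 2.56 ± 0.13 (SE, edgeR adjusted p = 1.16e-08). FGF5 rose from 282 ± 28.7 to 752 ± 18.9 (SD, n = 3 each), and FGF2, the FGF with the most reads, fell from 4021 ± 82.3 to 2861 ± 109.6 (SD, n = 3 each) normalized counts (log2 fold changes 1.42 and -0.49). FGF1 and FGF9 did not pass.

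**Figure D4:**
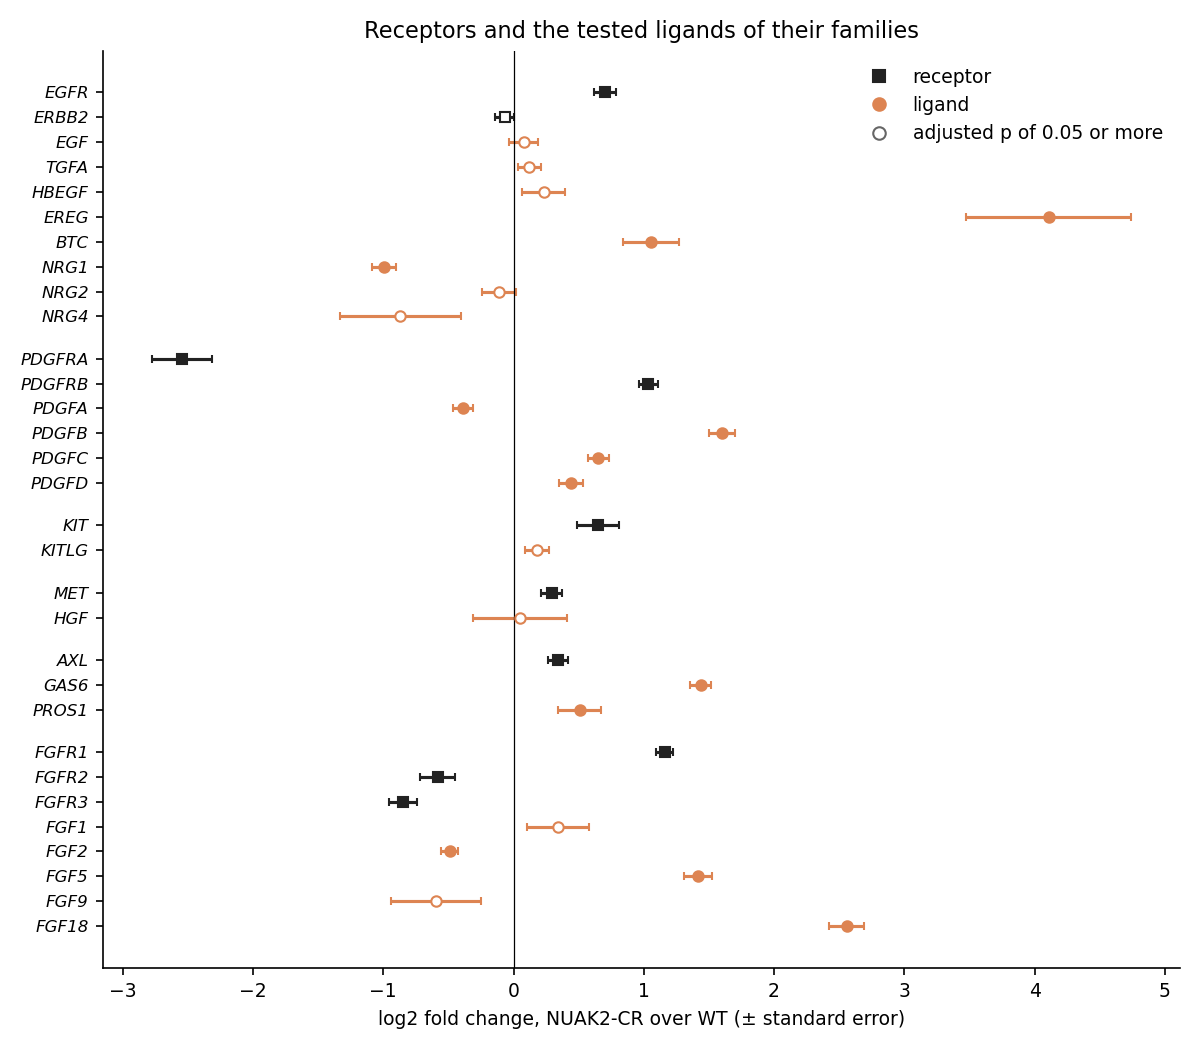
Log2 fold change of NUAK2-CR over WT (horizontal axis, bars are standard errors) for the receptors (squares) and the tested ligands of their families (circles), grouped by family; open symbols have an adjusted p of 0.05 or more. EREG at 4.11 and FGF18 at 2.56 are the farthest right and PDGFRA at -2.54 the farthest left.

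The remaining 48 human receptor tyrosine kinases were used for comparison, and 33 had enough reads. Of these, 10 were higher, 16 lower and 7 not called, so 78.8% were called, against 54.5% of all tested genes. The median log2 fold change was -0.40 beside 0.32 for the 10 glioblastoma receptors and -0.01 for all tested genes. Past the study's threshold of 2, 7 were lower and 1 was higher, beside 2.83% and 1.89% of all tested genes. The 7 were ROR2 (-3.74), EPHB1 (-2.96), TIE1 (-2.94), the neurotrophin receptor NTRK2 (-2.86), CSF1R (-2.46), ROS1 (-2.26) and STYK1 (-2.15), and the higher gene was ROR1 (2.01). CSF1R, the receptor for the macrophage growth factor CSF1 and a relative of KIT and the PDGF receptors, went from 222 ± 17.9 to 40.2 ± 2.39 (SD, n = 3 each) normalized counts, in libraries where the leukocyte gene PTPRC had at most 2.89. The genes of the list with the most reads, EPHA2 and IGF1R, were lower by smaller amounts, with log2 fold changes of -0.40 and -0.47. Reads also depend on transcript length, and levels within this list were not compared per length.

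The close relatives of the 10 receptors were split as well, and these were named after their values were seen. MERTK and TYRO3, the other TAM receptors, rose together with AXL, by 1.06 and 0.48 on the log2 scale. FGFR4 fell with FGFR2 and FGFR3, from 139.6 ± 31.8 to 44.2 ± 3.31 (SD, n = 3 each) normalized counts, which left FGFR1 as the FGF receptor that rose. ERBB3 had 36.9 ± 3.40 and 45.2 ± 12.6 normalized counts (SD, n = 3 each) and did not pass, and ERBB4 was too low to be tested.

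Adaptors and proximal signalling genes came next. Of 33 tested, 13 were higher, 6 lower and 14 not called, with a median log2 fold change of 0.18. The 57.6% called was close to the 54.5% of all tested genes. SHC2, an adaptor with few reads, rose from 35.1 ± 8.25 to 250.9 ± 11.2 (SD, n = 3 each) normalized counts (log2 fold change 2.81 ± 0.21 SE, edgeR adjusted p = 3.45e-07). Of the genes of this list with the most reads, PTPN11, the phosphatase SHP2, rose by 0.34 on the log2 scale. SHC1 had 0.20 (adjusted p = 0.0214, edgeR), and did not pass when replicate 2 or replicate 3 of either group was left out, with an adjusted p up to 0.0807. GRB2, the adaptor that links receptors to RAS and was singled out after its values were seen, fell from 8186 ± 567 to 4921 ± 183 (SD, n = 3 each) normalized counts.

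Of 22 tested genes listed as attenuating or shedding receptors, 6 were higher, 3 lower and 13 neither, with a median log2 fold change of 0.06. The share called was 40.9%, against 54.5% of all tested genes. ERRFI1, an inhibitor that binds the EGFR kinase domain, had normalized counts of 8977, 10301 and 10703 in the WT libraries and 23776, 23882 and 25362 in the edited ones, in replicate order. It rose 2.44-fold (log2 fold change 1.28 ± 0.08 SE, edgeR adjusted p = 4.89e-08), beside 1.62-fold for EGFR. LRIG1, another negative regulator of ERBB receptors and of MET, named after its values were seen, rose from 2668 ± 301 to 5909 ± 174 (SD, n = 3 each) normalized counts. PTPRK, a receptor phosphatase, was higher (log2 fold change 2.09), but NUAK2-CR replicate 2 had 50.7 normalized counts, close to WT, against 268 and 238 in NUAK2-CR replicates 1 and 3. GRB7, next to ERBB2 on chromosome 17, is an adaptor rather than an inhibitor, though counted among the 3 lower genes of this list. It fell from 19, 22 and 14 raw counts to 4, 2 and 0 over the same order of libraries. Without NUAK2-CR replicate 1 it was at least 4.72-fold lower. FGFRL1, the FGF receptor without a kinase domain, did not pass (-0.14, 95% interval -0.29 to 0.01), except when WT replicate 1 was left out.

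Among coreceptors, 4 of 6 genes were tested and all 4 passed, 3 higher and 1 lower, where 54.5% of all tested genes passed. NRP2, a neuropilin, fell from 21001 ± 2426 to 13088 ± 812 (SD, n = 3 each) normalized counts. GPC1, a heparan sulfate proteoglycan that binds FGFs, had a log2 fold change of 0.19 (adjusted p = 0.0381, edgeR) and did not pass in 5 of the 14 alternatives, with an adjusted p up to 0.141.

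**Figure D5:**
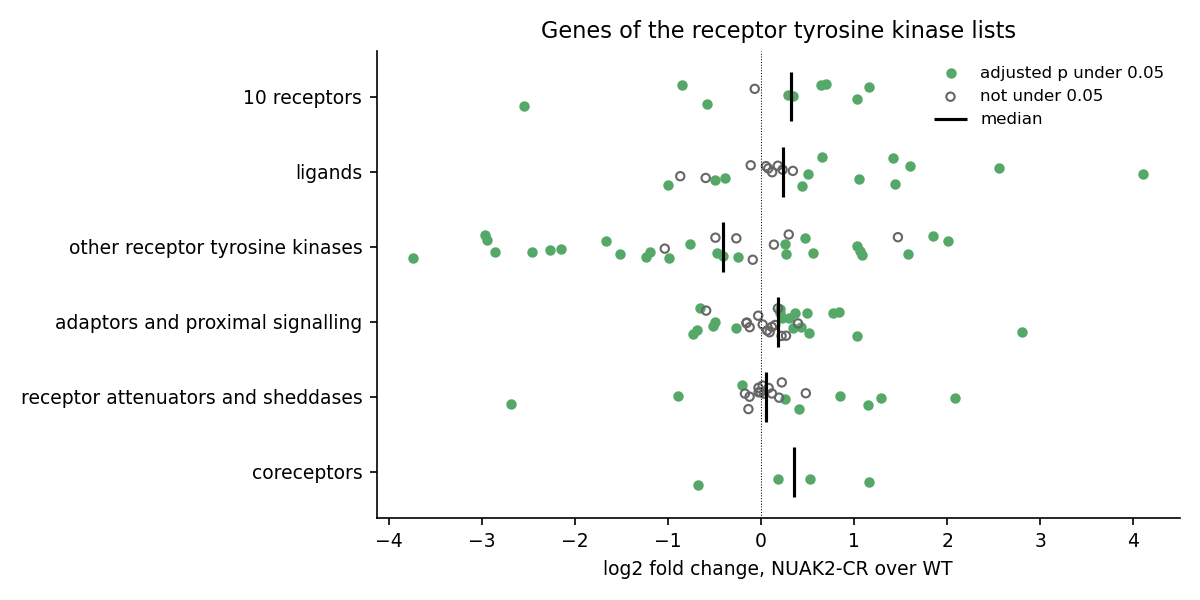
Log2 fold change of NUAK2-CR over WT (horizontal axis) for each tested gene of the 6 lists (rows; vertical scatter within a row has no meaning), filled where the adjusted p was under 0.05; black bars are list medians. The medians run from -0.40 for the other receptor tyrosine kinases to 0.36 for the coreceptors, and PDGFRA is the leftmost of the 10 receptors.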

How the data were processed

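RNA of 3 WT and 3 NUAK2-CR U251MG libraries was prepared with a stranded poly(A) kit from total RNA and sequenced as paired-end reads. According to the paper and the submitters' processing notes, the authors used Trimmomatic, HISAT2 (hg38) and featureCounts with default settings and deposited raw read counts per NCBI gene identifier; the annotation and strand setting are not given in the sources used here. Identifiers were matched to symbols with RefSeq (27745 of 28395).

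Genes were filtered with filterByExpr, normalized with TMM and tested with edgeR 4.0.16 (R 4.3.3, quasi-likelihood F test, prior count 0.125, Benjamini-Hochberg over 14873 genes, threshold 0.05). In counts simulated for this comparison, run on 14670 genes, 80 of 99 genes changed 2-fold and 99 of 99 changed 8-fold were called, with 7 calls among 14472 unchanged genes. The simulated spread was the one fitted to these same libraries. Far fewer genes were changed in the simulation than were called in the data, so these rates may not carry over to the data. Transcript lengths came from GENCODE (MANE Select); intervals are 95%. Named beside the 10 members were ligands past a log2 fold change of 1, genes of other lists past 2 and the 2 with the most reads per list. Members and lists were chosen with earlier results of these data known. Alternatives were DESeq2 1.42.0, RLE and library-size scaling, filters of 1 count in any library or 10 in every library, each library left out, a replicate block, a prior count of 2, thinning to the smallest total, fold thresholds of 1 and 2, and 20 neighbours; the exon-length alternative was added after seeing the data. A floor of 3 counts covers counting error only. Python 3.11.15, pandas 2.3.3 and matplotlib 3.10.9 made tables and figures.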

Additional observations from a re-analysis of the deposited data

How the results depend on the processing

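Every receptor kept its direction and its side of the threshold in all 14 alternative fits, which gave 140 values over the 10 genes. Leaving out 1 library moved them most: PDGFRA ran from -2.86 to -2.38, FGFR2 from -0.69 to -0.44, MET from 0.22 to 0.35 and AXL from 0.27 to 0.41 on the log2 scale, with the largest adjusted p among the called receptors 0.0291 (MET). The count of receptors called was 6 higher and 3 lower in each of those fits, those without 1 library included. A log2 fold change threshold of 1 left 2 higher and 1 lower, and a threshold of 2 left 0 higher and 1 lower. With a replicate block the counts were again 6 and 3; same-numbered libraries of both groups deviated together by correlations of only 0.04, -0.04 and 0.05, so the numbers were not treated as pairs. Counts of the other lists stayed within 1.5 times in all alternatives. Depth limits the genes with few reads, such as EREG, GRB7 and HGF.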
